A study of Homo sapiens with 2 samples.

Results

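The 45 protein-coding genes of the ABC transporter family have symbols that run from ABCA to ABCG and end in a number. They were examined for regions at which FLAG-SMARCA4 ChIP-seq signal differed between parental TOV21G cells and a clone resistant to an EZH2 inhibitor. They were taken by symbol from the 20176 protein-coding genes of GENCODE on hg19 and fall into subfamilies A (12 genes), B (9), C (11), D (4), E (1), F (3) and G (5). Of the 12896 regions in the deposited lists, 22 belong to these genes, because they lie within 1 kb of a transcription start site (TSS) of any of their transcripts or elsewhere in the gene body. Readthrough genes and pseudogenes with ABC symbols were not counted.

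The data are 2 libraries of FLAG ChIP-seq, in which DNA crosslinked to a tagged protein is precipitated and sequenced, with 1 library per condition. TOV21G is an established line of ovarian clear cell carcinoma with mutated *ARID1A*, and its parental library came from cells without selection in the drug. The EZH2 inhibitor-resistant (EIR) library came from resistant clone 3, which was raised in GSK126, an inhibitor of the methyltransferase EZH2, at concentrations increased stepwise from 5 to 20 μM and picked once stable at the highest. Both were made from cells with a FLAG tag and a puromycin resistance cassette at the 3′ end of the endogenous *SMARCA4* coding region, chosen as single colonies, so that each condition is 1 clone and neither comes from untagged cells. The parental library held about 25636000 tags (aligned reads) and the EIR library about 34972000, which is 1.36 times as many, so that 1 EIR tag counted as 0.733 on the parental scale. Of the listed regions, 10792 were higher in parental cells and 2104 were higher in EIR cells, and regions bound alike in both libraries are not among them. A gene without a region may therefore have had equal SMARCA4 signal in both libraries or none. Each library was the control of the other and no input library was used here. A listed region is thus a difference in tags, and its source was not tested. RNA levels of the genes were not analysed here.

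ABC proteins bind and hydrolyse ATP at paired cytosolic domains, and most of them use this energy to carry substrates across membranes. Subfamilies B, C and G hold the pumps that remove anticancer drugs from cells, of which ABCB1 (P-glycoprotein, MDR1), ABCC1 (MRP1) and ABCG2 (BCRP) are the best known, while subfamily A and parts of G move cholesterol and other lipids. Members of subfamilies E and F have no membrane domain and act on ribosomes, so the family name does not make every member a transporter. SMARCA4 (BRG1) is a catalytic ATPase of SWI/SNF, the chromatin remodeling complex of which ARID1A is a subunit, and it is found at promoters and enhancers where it shifts nucleosomes.

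The bases that carry the main contrasts among the drug pumps are printed first, from GRCh37 (hg19), in the 5′ to 3′ direction of the gene. Capitals mark the motifs searched on both strands, which were the GC box GGGCGG, the CCAAT box CCAAT, the AP-1 site TGANTCA and the E-box CACGTG, and neighboring matches run together in 1 stretch of capitals. Bases annotated as UTR were left out, which shortens some windows. The first sequence is the middle of the region of *ABCB1*, at which the EIR library had more tags (chr7:87229700-87229999, minus strand). The other holds bases before the canonical TSS of *ABCC1* (chr16:16043223-16043433, plus strand), at which the parental library had more.
ABCB1 region: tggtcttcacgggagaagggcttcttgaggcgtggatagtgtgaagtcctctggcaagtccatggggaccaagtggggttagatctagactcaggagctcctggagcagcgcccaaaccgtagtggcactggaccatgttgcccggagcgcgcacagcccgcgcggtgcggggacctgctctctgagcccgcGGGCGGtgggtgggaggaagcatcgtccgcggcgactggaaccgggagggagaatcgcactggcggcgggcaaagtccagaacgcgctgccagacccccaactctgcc
ABCC1 before the TSS: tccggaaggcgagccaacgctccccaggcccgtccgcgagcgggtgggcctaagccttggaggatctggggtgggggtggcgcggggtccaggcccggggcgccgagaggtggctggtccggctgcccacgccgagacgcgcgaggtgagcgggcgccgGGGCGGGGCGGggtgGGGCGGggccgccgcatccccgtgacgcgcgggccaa
The *ABCB1* stretch of 300 bases held 24 CG dinucleotides and 1 GC box, and the *ABCC1* stretch of 211 bases held 30 and 3. The stretches differ in length and lie on opposite sides of the TSS, so their counts are not a matched comparison.

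Regions in the bodies of the pump genes had another base composition. The next sequence is the middle 300 bases of the *ABCC3* body region nearer to the TSS (chr17:48715957-48716256, plus strand), which lay in intron 1 and was higher in parental cells.
ABCC3 intron 1: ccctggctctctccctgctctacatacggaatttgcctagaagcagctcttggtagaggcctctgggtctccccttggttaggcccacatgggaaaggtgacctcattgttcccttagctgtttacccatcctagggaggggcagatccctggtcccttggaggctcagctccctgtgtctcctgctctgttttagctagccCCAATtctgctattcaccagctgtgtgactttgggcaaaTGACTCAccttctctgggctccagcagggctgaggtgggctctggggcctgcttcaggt
It held 1 AP-1 site, 1 CCAAT box and 1 CG dinucleotide.

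The last set shows promoters of *ABCA2* (chr9:139922741-139922939, minus strand) and *ABCB10* (chr1:229694455-229694704, minus strand), which had the largest differences in tags among members outside the pumps, beside the middles of the other EIR-higher regions, in *ABCB8* (chr7:150730507-150730697, plus strand) and *ABCC8* (chr11:17429850-17429938, minus strand).
ABCA2 before the TSS: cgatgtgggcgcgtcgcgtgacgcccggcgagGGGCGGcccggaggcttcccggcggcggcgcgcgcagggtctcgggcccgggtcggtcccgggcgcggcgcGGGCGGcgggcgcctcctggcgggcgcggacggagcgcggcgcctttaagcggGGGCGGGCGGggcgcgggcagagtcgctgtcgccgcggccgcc
ABCB10 before the TSS: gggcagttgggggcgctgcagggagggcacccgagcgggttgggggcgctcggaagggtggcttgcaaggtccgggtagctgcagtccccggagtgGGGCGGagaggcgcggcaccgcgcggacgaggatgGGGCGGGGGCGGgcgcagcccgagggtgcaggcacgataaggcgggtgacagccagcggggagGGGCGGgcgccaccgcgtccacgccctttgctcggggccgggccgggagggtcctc
ABCB8 region: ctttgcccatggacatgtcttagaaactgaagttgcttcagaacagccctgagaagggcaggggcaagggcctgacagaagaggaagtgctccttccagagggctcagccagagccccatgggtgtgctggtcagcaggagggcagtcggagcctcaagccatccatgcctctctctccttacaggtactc
ABCC8 region: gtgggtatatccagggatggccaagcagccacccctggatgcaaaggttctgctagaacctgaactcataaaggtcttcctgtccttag
The *ABCA2* and *ABCB10* stretches each held 4 GC boxes, with 44 and 29 CG dinucleotides. The *ABCA2* stretch lay within its region, but the *ABCB10* region reached only 66 bp upstream of the canonical TSS. Most of the *ABCB10* stretch was therefore outside the region where tags differed. The *ABCB8* stretch held 1 CG dinucleotide, the *ABCC8* stretch held 0, and neither held any of the motifs searched.

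Across the family, 11 of 45 members (24.4%) had a listed region within 1 kb of a TSS, against 24.6% of all protein-coding genes. A parental-higher region lay there for 8 members (17.8%), namely *ABCA2*, *ABCA3*, *ABCA12*, *ABCB6*, *ABCB10*, *ABCC1*, *ABCC3* and *ABCF3*, against 23.2% of protein-coding genes. An EIR-higher region lay there for 3 members (6.67%), *ABCB1*, *ABCB8* and *ABCC8*, against 1.96% of protein-coding genes. No member had promoter-proximal regions of both directions. Regions in the gene body, further than 1 kb from every TSS of the gene, were found in 4 members (8.89%), *ABCA5*, *ABCB8*, *ABCC3* and *ABCC4*, against 11.6% of protein-coding genes, and all 11 of these regions, 7 of them in *ABCC4*, were parental-higher. Of the body regions of all protein-coding genes, 81.8% of 4340 were parental-higher. The shares for either direction together and for parental-higher regions thus lay near or below those of all protein-coding genes. The EIR-higher share rests on 3 genes and was not tested. The regions of *ABCB8* and *ABCC8* began 4870 and 68333 bp downstream of the canonical TSS, near the starts of other transcripts. With the 5′ end of the gene as the only TSS, 0 members had an EIR-higher region.

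**Figure D1:**
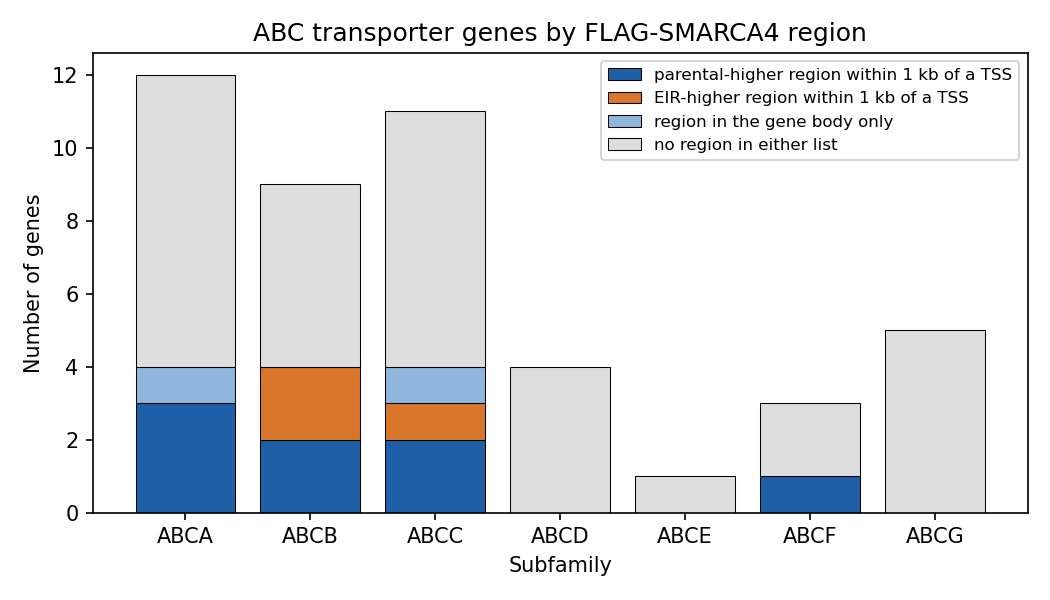
Number of ABC genes in each subfamily (vertical axis) by the kind of FLAG-SMARCA4 region they had, with dark blue for a parental-higher and orange for an EIR-higher region within 1 kb of a TSS, light blue for a region in the body only and gray for no region. Regions are seen in subfamilies A, B, C and F, EIR-higher ones only in B (2 genes) and C (1 gene), and the 10 genes of subfamilies D, E and G are gray throughout.

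Summed over the regions of a subfamily, parental tags exceeded scaled EIR tags in all 4 subfamilies that had any. Subfamily A had 262 parental tags against 83.6 scaled EIR tags in 4 regions. Subfamily B, where 2 of 5 regions were EIR-higher, had 160 against 85.0, and subfamily C had 454 against 202 in 12 regions. The single region of subfamily F had 28 against 11. Over the whole family the 22 regions covered 15.1 kb and held 904 parental and 382 scaled EIR tags, which is 59.9 and 25.3 tags per kb. These sums follow from which regions were called in each library, so they describe the listed regions and not the whole loci.

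For each region, the split of its tags between the libraries was set against the ratio of library totals in an exact binomial test, two-sided and Benjamini-Hochberg adjusted over all 12896 regions. Every listed region passed at 0.05 (100%), since the lists hold only regions called for a difference between these libraries, and the p-values below therefore repeat that selection. They compare 2 libraries and not 2 conditions, there is no spread between replicates, and all intervals are 95% and cover counting error only.

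Among the 14 drug efflux pumps and their close relatives, the promoter-proximal regions pointed in both directions. *ABCB1* was the only one of them with an EIR-higher region, while *ABCC1* and *ABCC3* had parental-higher regions and *ABCC4* had parental-higher regions in its body alone. The other 10, *ABCB4*, *ABCB5*, *ABCB11*, *ABCC2*, *ABCC5*, *ABCC6*, *ABCC10*, *ABCC11*, *ABCC12* and *ABCG2*, had no region in either list. Of all 20176 protein-coding genes, 14028 likewise had no region. Within 1 kb of a TSS, 23.2% of them had a parental-higher region and 1.96% an EIR-higher one.

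The region of *ABCB1*, which encodes the broad-specificity exporter P-glycoprotein, lay on chr7:87229600-87230100. It held 4 tags in the parental library and 26 in the EIR library, or 19.1 after scaling. Signal was thus 4.76-fold higher in EIR cells (interval 1.65 to 18.8, adjusted p = 0.00289 by the exact binomial test), the largest EIR-higher fold in the family, on a count of 4 parental tags. The region began 100 bp and ended 600 bp downstream of the canonical TSS, over exon 1 and intron 1, and no other gene had a TSS within 1 kb. Its GC content was 63.9% and its ratio of observed to expected CpG was 0.73. Other *ABCB1* transcripts start further upstream, with the 5′ end of the gene at position 87342639, so the region belongs to the downstream promoter. *ABCB4*, the phosphatidylcholine floppase encoded next to it, had no region of its own, and its nearest one was this *ABCB1* region at a distance of 120 kb.

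*ABCC1* encodes MRP1, an exporter of glutathione conjugates. Its region (chr16:16043056-16044086) covered the canonical TSS, from 417 bp upstream to 613 bp downstream, and held 93 parental and 50 EIR tags (36.7 scaled). The parental signal was 2.54-fold higher (1.78 to 3.65, adjusted p = 9.15e-07, exact binomial test). The Poisson intervals of the 2 tag counts did not overlap, as the plot of tags at promoter-proximal regions shows. This was not particular to *ABCC1*, as among the regions plotted only those of *ABCB8* and *ABCC8* had overlapping intervals. All of them were listed for a difference between the libraries.

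*ABCC3* encodes MRP3, which exports glucuronides and bile salts. The region over its canonical TSS (chr17:48711989-48712835, from 253 bp upstream to 593 bp downstream) held 107 parental and 79 EIR tags (57.9 scaled). This was the highest tag density of any member region in either library, at 126 parental and 68.5 scaled EIR tags per kb. At 1.85-fold (1.37 to 2.50, adjusted p = 2.28e-04, exact binomial test) it was also the smallest fold among the members, the only one under 2, and just 3.3% of regions in the parental-higher list differed by no more than it. Within intron 1, the region at chr17:48715857-48716357 held 43 parental and 29 EIR tags (21.3 scaled, 2.02-fold, 1.23 to 3.36). Further into intron 1, chr17:48719769-48720269 held 26 and 13 (9.5 scaled, 2.73-fold, 1.35 to 5.78). All 3 regions were thus parental-higher, and tag density fell with distance from the TSS in both libraries.

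*ABCC4* encodes MRP4, an exporter of cyclic nucleotides and prostaglandins. None of its TSSs had a listed region within 1 kb, and instead 7 parental-higher regions lay in its body on chromosome 13, between 22.8 and 93.3 kb downstream of the canonical TSS. Together they held 181 parental and 84 EIR tags (61.6 scaled). In intron 1, 6 of them spanned 26.9 kb with 164 parental and 78 EIR tags (57.2 scaled). As each was listed for being higher in parental cells, the direction of these sums was fixed by that choice.

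The region nearest to the *ABCC4* TSS, chr13:95930418-95930918, held 18 parental and 8 EIR tags (5.9 scaled, 3.07-fold). Next into the intron, chr13:95919899-95920575 held 38 and 15 (11 scaled, 3.46-fold, 1.86 to 6.76), with the smallest adjusted p of the group (1.25e-04, exact binomial test). The region chr13:95912789-95913431 held 26 and 13 (9.5 scaled, 2.73-fold). These were all modest in depth, with parental densities of 36.0 to 56.2 tags per kb. The region chr13:95910421-95910921 held 20 and 9 (6.6 scaled, 3.03-fold). In chr13:95907639-95908763, the longest of them, there were 43 and 25 (18.3 scaled, 2.35-fold, 1.40 to 4.01). The last of intron 1, chr13:95904017-95904517, held 19 and 8 (5.9 scaled, 3.24-fold). In intron 6, chr13:95860414-95860914 stood apart from the cluster with 17 and 6 (4.4 scaled, 3.87-fold, 1.45 to 12.0). The folds of the 7 regions thus lay between 2.35 and 3.87 with overlapping intervals.

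Having as many as 7 body regions was rare among protein-coding genes, of which 89 (0.441%) had at least that many. *ABCC4* is long, at 282 kb, or 2.49 body regions per 100 kb. Of 508 protein-coding genes within 1.2-fold of its length, 169 had any body region, 12 had at least 7, the median was 0 and the maximum was 31.

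**Figure D2:**
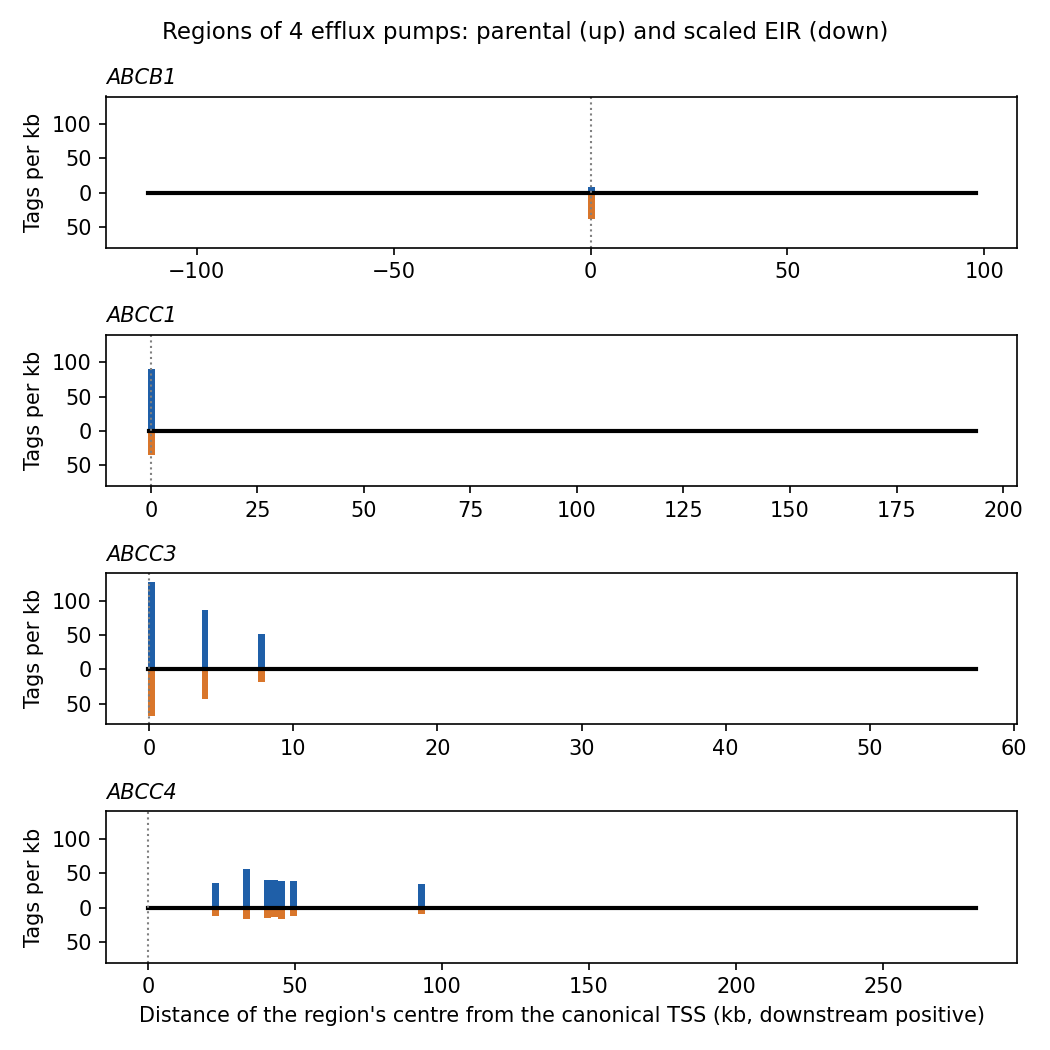
Tags per kb (vertical axis) of the listed regions of *ABCB1*, *ABCC1*, *ABCC3* and *ABCC4* against the distance of the region's center from the canonical TSS in kb (dotted line, downstream positive), with parental tags drawn upward in blue, scaled EIR tags downward in orange and the gene as a black line. Bars are widened to be visible and their width is not to scale. *ABCB1* is the gene whose downward bar is the longer (8.0 parental and 38.1 scaled EIR tags per kb), and *ABCC4* has 7 regions within the body and none at the TSS.

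Of the 16 cholesterol and lipid transporters of subfamilies A and G, 3 had a promoter-proximal region, *ABCA2*, *ABCA3* and *ABCA12*, and all 3 were parental-higher. *ABCA5* had a body region, and the other 12 had none. Among all protein-coding genes, 24.6% had a promoter-proximal region and 14028 of 20176 had no region. *ABCA2*, a transporter of endosomes and lysosomes involved in sterol traffic, had the region with the most tags in the family (chr9:139921799-139923461). It held 146 parental and 58 EIR tags (42.5 scaled), 3.43-fold higher in parental cells (2.52 to 4.74, adjusted p = 8.69e-15, exact binomial test). The region covered the canonical TSS, from 772 bp upstream to 890 bp downstream, and also lay within 1 kb of a TSS of *LINC02908*. An EIR-higher region stood close to it at chr9:139925216-139925716, 1849 bp from an *ABCA2* TSS, outside the gene and within 1 kb of a TSS of *FUT7*. That region held 5 parental and 24 EIR tags (17.6 scaled), 3.52-fold higher in EIR cells (1.32 to 11.8).

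*ABCA3*, which loads surfactant lipids into lamellar bodies in the lung, had 79 parental and 41 EIR tags (30.1 scaled) at chr16:2390034-2390834. The difference was 2.63-fold (1.78 to 3.93, adjusted p = 3.08e-06, exact binomial test). The region covered the canonical TSS and had the highest GC content of the family's regions, 78.4%, and the pseudogene *ABCA17P* also starts within 1 kb of it. *ABCA12*, the ceramide transporter of keratinocytes, had 20 parental and 8 EIR tags (5.9 scaled) at chr2:216002713-216003213. Its fold was 3.41 (1.44 to 8.95, adjusted p = 0.00530, exact binomial test). Unlike the others it lay downstream of the canonical TSS, by 136 to 636 bp, over the TSS of another protein-coding transcript, and its GC content was only 42.3%. The body region of *ABCA5*, a lysosomal lipid transporter, was in intron 1 (chr17:67316725-67317225), with 17 parental and 7 EIR tags (5.1 scaled, 3.31-fold, 1.31 to 9.45).

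Of the 5 transporters of subfamily B that work as dimers in mitochondria or lysosomes, *ABCB10* and *ABCB6* had a parental-higher region, *ABCB8* had regions of both directions, and *ABCB9* had none. *ABCB10*, an inner mitochondrial membrane protein needed for heme synthesis in erythroid cells, had 111 parental and 52 EIR tags (38.1 scaled) at chr1:229693352-229694520, over the canonical TSS. This was 2.91-fold (2.08 to 4.13, adjusted p = 1.76e-09, exact binomial test). *ABCB6*, a porphyrin-binding transporter, had 19 parental and 6 EIR tags (4.4 scaled) at chr2:220078360-220078860, and its fold of 4.32 was the highest parental-higher fold of the family and among the widest in interval (1.66 to 13.2, adjusted p = 0.00221, exact binomial test). That region was not at the main promoter. It lay 218 bp from the start of a transcript with a retained intron, over exons 8 to 10 and 4820 to 5320 bp downstream of the canonical TSS.

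*ABCB8*, a protein of the inner mitochondrial membrane linked to iron export, was the only member with regions of both lists. The EIR-higher region (chr7:150730407-150730907) held 5 parental and 22 EIR tags (16.1 scaled), 3.23-fold higher in EIR cells (1.19 to 10.9, adjusted p = 0.0115, exact binomial test). It lay 390 bp from the start of a transcript without a defined coding sequence and 4870 to 5370 bp downstream of the canonical TSS, over intron 1 and exon 2. In intron 9, chr7:150736491-150736991 held 21 parental and 10 EIR tags (7.3 scaled), 2.86-fold higher in parental cells (1.29 to 6.81). This second region stood 1716 bp from the nearest TSS.

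The sulfonylurea receptors are ABC proteins that regulate potassium channels and do not pump drugs. *ABCC8* (SUR1) had an EIR-higher region (chr11:17429559-17430059) with 4 parental and 21 EIR tags (15.4 scaled), 3.85-fold higher in EIR cells (1.30 to 15.4, adjusted p = 0.00861, exact binomial test). It lay over intron 23 and exon 23, more than 68 kb downstream of the canonical TSS (68333 to 68833 bp) and 240 bp from the start of a transcript with a retained intron. *ABCC9* (SUR2) had none. Of the 4 soluble members that act in translation, *ABCF3* had 28 parental and 15 EIR tags (11 scaled) at chr3:183903828-183904472, over its canonical TSS. The fold was 2.55 (1.31 to 5.13, adjusted p = 0.00510, exact binomial test). *ABCE1*, the ribosome recycling factor, *ABCF1* and *ABCF2* had no region.

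**Figure D3:**
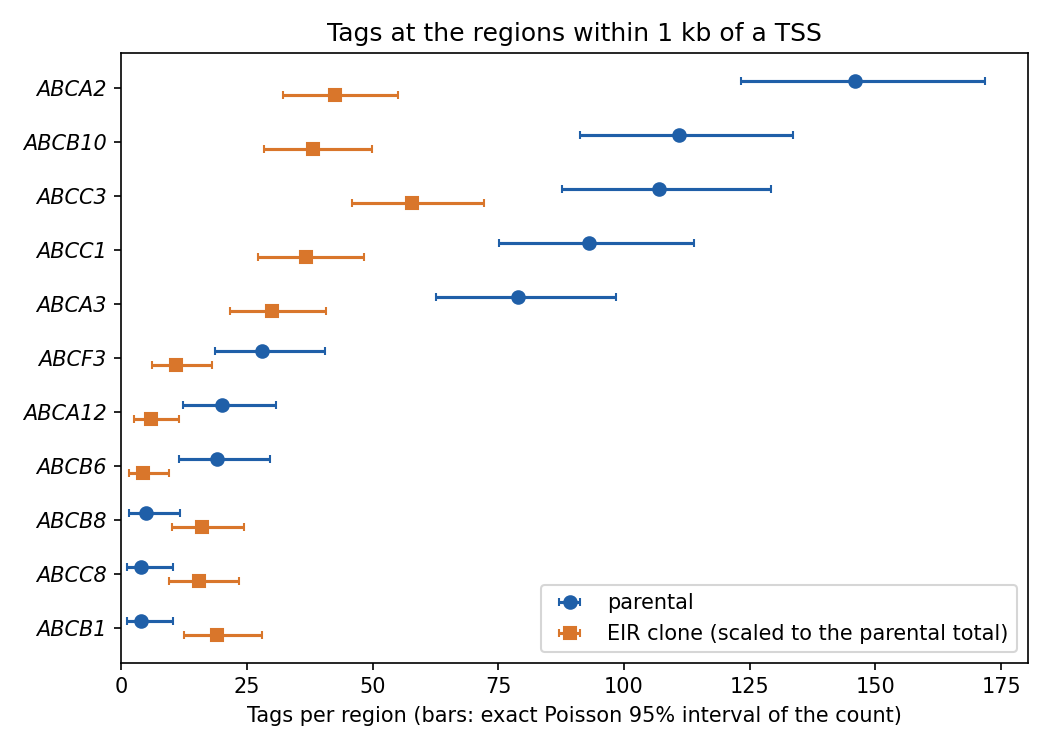
Tags (horizontal axis) in the region within 1 kb of a TSS for the 11 members that had one, with parental tags as blue circles, EIR tags scaled to the parental total as orange squares, and exact Poisson 95% intervals of each count as bars. *ABCA2* leads with 146 parental and 42.5 scaled EIR tags, and in the lowest 3 rows, *ABCB8*, *ABCC8* and *ABCB1*, the order of the libraries is turned with 4 or 5 parental tags.

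The parental-higher and EIR-higher regions of the family differed in place, while their densities of scaled EIR tags overlapped. Parental tags were fewer at the EIR-higher regions, which follows from how the lists were made. At EIR-higher regions the scaled EIR tags were 15.4 to 19.1, or 30.8 to 38.1 tags per kb. At the 8 parental-higher promoter-proximal regions, scaled EIR tags ranged from 8.8 per kb (*ABCB6*) to 68.5 per kb (*ABCC3*), with *ABCA3*, *ABCB10* and *ABCC1* at 37.6, 32.6 and 35.6 and *ABCA2*, *ABCF3* and *ABCA12* at 25.6, 17.1 and 11.7. The lists have a floor. No region of the EIR-higher list had fewer than 19 EIR tags, and none of the parental-higher list fewer than 15 parental tags. *ABCC8* with 21 and *ABCB8* with 22 EIR tags stood near it. So did *ABCA5* and the intron 6 region of *ABCC4* with 17 parental tags and the *ABCC4* region nearest to the TSS with 18. *ABCB6* and the last *ABCC4* region of intron 1 had 19. Of the 8 parental-higher promoter-proximal regions, 7 covered a TSS of their gene, against 68.9% of 5202 gene and region pairs over all protein-coding genes. None of the 3 EIR-higher ones did, against 35.0% of 417 pairs. The 3 EIR-higher regions all lay downstream of the canonical TSS, and only that of *ABCB1* was within 1 kb of it.

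The size of the differences was like that in other genes. The median fold of the nearest promoter-proximal region was 2.55 for the 11 members and 2.47 for 4958 protein-coding genes. Among parental-higher ones it was 2.77 (8 members) and 2.52 (4647 genes), and for EIR over parental tags at EIR-higher ones it was 3.85 (3 members) and 3.35 (311 genes). The 11 body regions of the family, all parental-higher, had a median of 3.03, against 3.07 for the 3551 parental-higher body regions of protein-coding genes. The 8 parental-higher promoter-proximal regions of members had a median density of 89.1 parental tags per kb, against 66.0 for those of protein-coding genes, and of 29.1 scaled EIR tags against 25.8. The 11 body regions of the family had a median of 40.0 parental tags per kb, and so had the 3551.

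**Figure D4:**
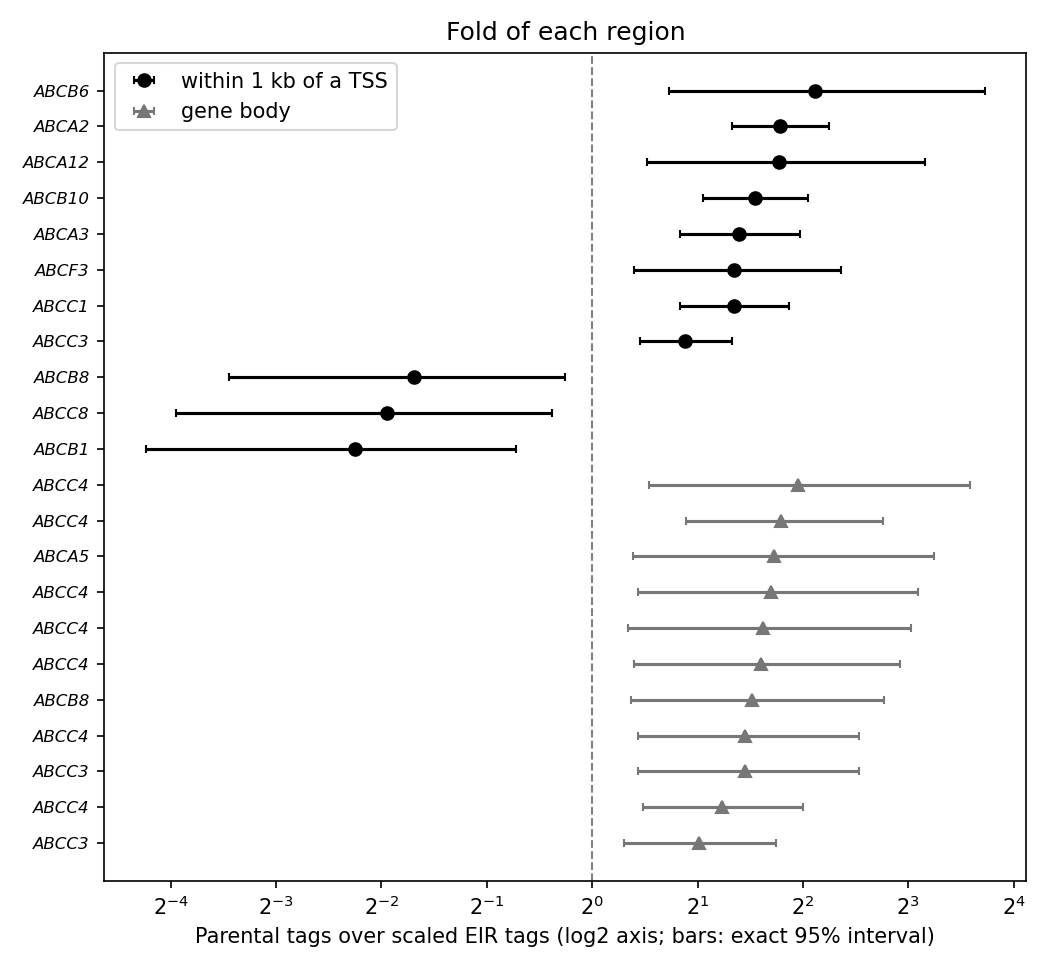
Parental tags over scaled EIR tags (horizontal axis, log2 scale) for each of the 22 regions, with black circles for regions within 1 kb of a TSS, gray triangles for body regions and bars for the exact 95% interval. All body regions lie right of the dashed line of equal tags, with folds from 2.02 to 3.87, and the regions of *ABCB8*, *ABCC8* and *ABCB1* lie left of it, with no interval crossing the line.

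Scaling set the strength of these differences, because a change of 1.5 times in the scale of the EIR library multiplies every fold by that amount. The study reported less SMARCA4 RNA and protein and a general decrease of its binding in EIR cells. Scaling to library totals cannot register such a general decrease. With the EIR library scaled 1.5 times higher, 4 of the 8 parental-higher promoter-proximal regions still passed the exact binomial test (*ABCA2*, *ABCA3*, *ABCB10* and *ABCC1*). So did 1 of 11 body regions, against 21.8% of all parental-higher regions. The 3 EIR-higher regions passed too, as did 100% of all EIR-higher regions, because this change can only enlarge their folds. With it scaled 1.5 times lower, *ABCB1* was the one EIR-higher member that still passed, against 30.4% of all EIR-higher regions. No direction could turn under these scalings, since the smallest parental-higher fold of the family was 1.85 and the smallest EIR-higher fold 3.23.

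The promoters of members with and without a region differed in base composition in the way those of other genes did. In the 250 bases before the canonical TSS, 7 of 8 members with a parental-higher region (87.5%) were CpG-rich, with a ratio of observed to expected CpG above 0.6, and so were 88.4% of 4661 protein-coding genes with such a region. Among members with no promoter-proximal region, 19 of 34 (55.9%) were CpG-rich, and among protein-coding genes without one 58.1% of 14927. The exception among the 8 was *ABCA12*. The regions of *ABCB6*, *ABCB8* and *ABCC8* lay 4820 bp or more downstream of the canonical TSS. For these genes the 250 bases describe the canonical promoter and not the region. Read the other way, 9 of 28 CpG-rich members (32.1%) and 2 of 17 CpG-poor members (11.8%) had a region, against 33.3% and 9.05% of protein-coding genes.

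A GC box was present in these 250 bases in 7 of the 8 members with a parental-higher region (87.5%), in 24 of 45 members (53.3%) and in 59.1% of all protein-coding genes. A CCAAT box was found in 1 of the 8 and in 10 of 45 members (22.2%), against 34.3%. The AP-1 site was in 0 of the 8 and the E-box in 1, with 4.69% and 7.87% of all promoters holding them. These motifs were not counted in protein-coding genes with a parental-higher region, so the 8 have no matched share beside them. For *ABCB6*, 1 of the 8, these bases lay apart from its region. In the central 300 bases of the regions, CCAAT was found in 6 of 11 body regions of the family, against 30.9% of body regions of protein-coding genes in either direction, and a GC box in 1 of 11 against 12.0%. AP-1 sites were in 2 of 11 body regions, the *ABCC3* region printed above and that of *ABCB8*, against 10.9%, and in none of the promoter-proximal regions of the family. These matches are letters in a window, and binding by the factors was not measured.

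The 32 members without a region included *ABCA1*, *ABCA4*, *ABCA6*, *ABCA7*, *ABCA8*, *ABCA9*, *ABCA10* and *ABCA13* of subfamily A and *ABCB4*, *ABCB5*, *ABCB9* and *ABCB11* among those of subfamily B. In subfamily C they were *ABCC2*, *ABCC5*, *ABCC6*, *ABCC9*, *ABCC10*, *ABCC11* and *ABCC12*. Subfamily D, whose proteins bring fatty acids into peroxisomes or release cobalamin from lysosomes, had no region, and neither had *ABCE1*, *ABCF1* and *ABCF2*, or *ABCG1*, *ABCG2*, *ABCG4*, *ABCG5* and *ABCG8*. For the 32 members the nearest listed region lay at a median of 118 kb from a TSS, with the shortest distance, 7.14 kb, for *ABCC10*, and beyond 100 kb for 19 of them. For 26 of the 32 it was parental-higher and for 6 EIR-higher, while 83.7% of all listed regions were parental-higher. Among all protein-coding genes, 14028 of 20176 had no region, and the distances are given for members only. The distance was 150 kb for the drug pump *ABCG2*, 316 kb for the cholesterol exporter *ABCA1* and 66.0 kb for *ABCC2* (MRP2). By the nearest region of each member, the farthest inside the window was *ABCB8* at 390 bp and the nearest outside it was *ABCA5* at 5159 bp. Second regions lay closer to the limit, at 1716 bp for *ABCB8* and 1849 bp for *ABCA2*. With a window of 5 kb, these 2 members had regions of both directions.

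Genes of the same pathways outside the family were read from lists of related function, beside the shares over all protein-coding genes within 1 kb of a TSS, which were 23.2% for parental-higher regions and 1.96% for EIR-higher ones. At the latter share, a count of 0 in a list of about 20 genes says nothing particular to the list. Of 22 transcription factors and regulators that act on ABC genes, 8 had a parental-higher and 0 an EIR-higher region there. They included the liver X receptor *NR1H2* (71 parental and 26.4 scaled EIR tags, 2.69-fold) and its partner *RXRA* (99 and 29.3, 3.38-fold), which act together on *ABCA1*. *KEAP1*, the repressor of NRF2, had 116 and 67.4 tags (1.72-fold), and NRF2 itself, *NFE2L2*, had 5 body regions and none near a TSS. Of 19 enzymes that make or conjugate glutathione for the MRP pumps, 4 had a parental-higher region and 15 had no region at all, as had 14028 of the 20176 protein-coding genes. Among them were *GCLM* (79 and 35.9, 2.20-fold), the modifier subunit of the first enzyme of glutathione synthesis, and *MGST1* (31 and 8.8, 3.52-fold), a membrane glutathione transferase. Of 19 drug uptake carriers, 7 had a parental-higher region and 0 an EIR-higher one, such as the folate carrier *SLC19A1* (40 and 16.1, 2.48-fold) and the cation transporter *SLC22A3* (56 and 16.9, 3.32-fold). The ABC proteins with other symbols, the antigen peptide transporters *TAP1* and *TAP2* and the chloride channel *CFTR*, had no region in either list.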

How the data were processed

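FLAG-SMARCA4 ChIP-seq regions of 2 libraries were used, 1 of parental TOV21G cells and 1 of EIR clone 3, grouped by the sample labels. Per the study's methods and the submitters' processing notes, the authors aligned them to hg19 with Bowtie 0.12.9 and used the histone mode of HOMER to call regions in each library against the other at an FDR under 5%. How reads with several alignments were handled is not given in the sources used here, so tags near segmental copies such as *ABCC6* and its pseudogenes are uncertain. The deposited parental-higher list gives a count of parental tags per region, and EIR tags appear as a signal that the authors scaled to the parental total. The deposited folds, p-values, scores and clonal folds are the authors' own comparison and were not used.

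Library totals and whole EIR tags were recovered from the steps of the scaled values (99.3% of 140 distinct values fell on whole tags within 0.05). Regions were joined to every transcript TSS of GENCODE release 44 on GRCh37, the distance being taken from the nearest edge, and the nearest region within 1 kb was used per gene. Folds are ratios of tags with exact Clopper-Pearson intervals, and tags were compared by two-sided exact binomial tests with Benjamini-Hochberg adjustment over all regions. The steps were tested on simulated data. The members, gene lists and tests were chosen with earlier results of these data known. Members were named, a few being not reported here, with values in full for the promoter-proximal regions and for every region of the drug efflux pumps, and the few other body regions were all given. Alternatives were other windows, the center of the region, the 5′ end of the gene, a minimum fold of 2 or 4, other scalings of the EIR library, 1 added tag and merging of regions. Matplotlib 3.10.9, numpy 2.4.6, pandas 2.3.3, pysam 0.24.0, Python 3.11.15, samtools 1.23.1 and scipy 1.17.1 were used.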

Additional observations from a re-analysis of the deposited data

How the results depend on the processing

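The counts of members with a region (11), a parental-higher (8) and an EIR-higher region (3) within 1 kb of a TSS stayed within 1.5 times under windows of 500 bp and 5 kb, distance from the center of the region and a minimum fold of 2. At 5 kb, *ABCA2* and *ABCB8* were counted in both directions. Filtering by the exact binomial test could not change the counts, because every listed region passed it. With the 5′ end of the gene as the only TSS the counts were 7 in all and 0 EIR-higher. The *ABCB1* region was lost because that gene has transcripts that start further upstream. Those of *ABCB6*, *ABCB8* and *ABCC8* were lost because they lay 4820 bp or more downstream of the canonical TSS. At a minimum fold of 4 the counts were 2, 1 (*ABCB6*) and 1 (*ABCB1*), and 0 body regions were left. With the EIR library scaled 1.5 times higher, 7 members had a region, 4 of them parental-higher, 8 of the 22 regions still passed the exact test, and the median fold was 1.70. With it scaled 1.5 times lower, 1 EIR-higher member was left and the median fold was 3.82. None of these alternatives could reverse a region of the family, given the size of the folds. No paired analysis was possible because each condition has 1 library. With 1 library and 1 clone per condition, resistance, the clone and the library cannot be told apart, and differences under the floors of the lists were not detectable.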
